A study of Mus musculus with 12 samples.

Results

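The effect of the histone deacetylase inhibitor trichostatin A (TSA) on open chromatin was described in Hras.E1A cells, transformed mouse embryonic fibroblasts (MEFs) that carry oncogenic Hras and the adenoviral protein E1A. The ATAC-seq peak list of Hras.E1A+TSA cells was set against that of untreated Hras.E1A cells. Peaks of all 7 lists of the series that overlapped by 1 bp or more were merged into loci, and a locus was open in a group where that group's list held a peak. Of 147985 loci in all, 91821 were open in Hras.E1A+TSA, in Hras.E1A or in both, and these are the loci described here. A locus with a peak only in Hras.E1A+TSA is called opened, one with a peak only in Hras.E1A closed, and one with a peak in both kept.

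The series has 12 ATAC-seq samples in 7 groups: Hras.E1A and Hras.Myc cells with TSA, with the MEK inhibitor PD0325901 or untreated, and untreated Hdac7SA.Mef2d cells. Hras.E1A+TSA was 1 library from cells treated for 2 days, and Hras.E1A was 2 libraries from untreated cells, which the deposited list pools. Both groups came from MEFs called OG2, with the line written as Ras.E1A and the genotype as "Ras E1A immortalized" in the labels. The growth protocol gives embryos of day 13.5 and an ICR background. Each library was made from about 50000 cells of a line kept in culture, the dose of TSA was not given for these libraries, and no vehicle was named for the untreated cells.

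Histone acetyltransferases place acetyl groups on histone tails and histone deacetylases (HDACs) take them off, and acetylated histones are a mark of active promoters and enhancers. TSA binds the zinc ion in the active site of the class I, II and IV enzymes, so acetylation rises broadly when cells receive it. In ATAC-seq the transposase Tn5 cuts accessible DNA, so a peak is a place where nucleosomes were displaced, most often at a promoter or at an enhancer held open by transcription factors. In cells with active RAS and ERK, the Fos and Jun proteins that form AP-1 hold many distal sites open. TEAD proteins with the co-activator YAP often sit beside them, MEF2 proteins recruit class IIa deacetylases, and CTCF marks the boundaries of chromatin loops.

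Sequences of distal loci (over 1000 bp from any protein-coding transcription start site, TSS) show what the motif results below rest on. They are among the highest-ranked opened or closed loci with a given motif outside exons and repeats. Each is 60 bases of the plus strand of GRCm38 (mm10), with matches to the motif in capitals. The AP-1 motif was TGANTCA, TEAD GGAATG, and RUNX TGTGGTT, with N for any base. MEF2 was its usual AT-rich site and CTCF the core of its long site. Both strands of the central 200 bp of each locus were searched. Over all 147985 loci, 29.2% held the AP-1 motif, 18.9% TEAD, 7.23% RUNX, 0.881% MEF2 and 0.651% CTCF. A match is a run of letters and not a measured binding site.

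The 4 stretches below with the AP-1 motif came from loci opened in Hras.E1A+TSA, shown because AP-1 motifs were far more frequent in opened than in closed loci.
Apbb1ip intron, AP-1 (chr2:22822471-22822530): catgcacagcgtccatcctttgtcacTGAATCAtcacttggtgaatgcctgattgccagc
Vrk1 downstream, AP-1 (chr12:106168820-106168879): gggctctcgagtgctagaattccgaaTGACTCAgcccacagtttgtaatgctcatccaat
Syt16 intron, AP-1 (chr12:74130889-74130948): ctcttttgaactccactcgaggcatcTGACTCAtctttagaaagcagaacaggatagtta
Nefm upstream, AP-1 (chr14:68216815-68216874): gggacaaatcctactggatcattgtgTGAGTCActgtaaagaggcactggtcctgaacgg
Their loci stood at percentiles 99.4, 99.2, 98.4 and 98.2 of the Hras.E1A+TSA list and had no peak in Hras.E1A.

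The MEF2 motif was more frequent in opened than in closed loci, and 2 such stretches are shown for that reason.
Irx2 upstream, MEF2 (chr13:72485345-72485404): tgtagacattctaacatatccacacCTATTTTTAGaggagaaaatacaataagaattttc
Tmpo upstream, MEF2 (chr10:91325658-91325717): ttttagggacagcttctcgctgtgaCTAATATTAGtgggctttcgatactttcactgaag
These loci stood at percentiles 94.1 and 66.2 of the Hras.E1A+TSA list and had no peak in Hras.E1A. The Irx2 locus also held 2 AP-1 motifs and the Tmpo locus 1.

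Loci that closed held TEAD and RUNX motifs more often than kept loci did, and the stretches below come from such loci.
Lrtm1 intron, TEAD (chr14:29362572-29362631): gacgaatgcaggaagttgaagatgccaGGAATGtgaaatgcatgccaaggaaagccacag
Akap9 intron, TEAD (chr5:3967598-3967657): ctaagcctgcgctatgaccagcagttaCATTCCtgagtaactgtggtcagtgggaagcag
P3h2 intron, TEAD (chr16:26003507-26003566): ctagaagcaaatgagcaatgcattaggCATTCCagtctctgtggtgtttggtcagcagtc
Gbe1 intron, TEAD (chr16:70337948-70338007): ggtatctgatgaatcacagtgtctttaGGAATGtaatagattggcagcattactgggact
Gbe1 intron, RUNX (chr16:70337834-70337893): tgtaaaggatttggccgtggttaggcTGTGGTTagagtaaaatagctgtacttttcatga
Gpr33 upstream, RUNX (chr12:52038379-52038438): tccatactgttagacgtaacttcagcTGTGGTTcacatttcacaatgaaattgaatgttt
Both Gbe1 stretches lie in 1 locus, and the Gbe1 and Akap9 loci each also held 1 AP-1 motif. The loci at Lrtm1, Akap9, P3h2, Gbe1 and Gpr33 had no peak in Hras.E1A+TSA and stood at percentiles 99.2, 98.6, 98.2, 97.7 and 96.1 of the Hras.E1A list. In the TEAD stretches of Akap9 and P3h2 the motif reads on the minus strand.

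The 2 lists were close in length. The Hras.E1A+TSA list held 79687 peaks, against 81201 peaks in Hras.E1A, and every peak was 400 bp wide. Each peak carries a score on a scale that is not stated, with a median of 5.67 in Hras.E1A+TSA, against 6.08 in Hras.E1A, and a lowest value of 1.2 in both. Scores were therefore used only as ranks, and the percentile of a locus is the rank of its highest peak within its own list, from 0 for the weakest to 100 for the strongest. A rise in percentile is a rise relative to the other peaks of the list and not a measured gain of reads. With 1 list per group no test across replicates is possible and no p-value is given. Intervals of shares are Clopper-Pearson 95% limits. They hold counting error alone, as if adjacent loci were independent. The depth of the libraries is unknown, reads can be present where no peak was called, and in bulk cells fewer cells with an open locus cannot be told apart from less opening in each cell.

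Most loci kept their peak with TSA. The lists shared 67832 loci, while 11252 loci opened in Hras.E1A+TSA and 12737 closed. The opened loci were 14.2% (14.0 to 14.5) of all loci of the Hras.E1A+TSA list and 16.7% of the 67416 loci of the series without a peak in Hras.E1A. That second denominator is made of loci that have a peak in some other list. The closed loci were 15.8% of the 80569 loci open in Hras.E1A. The number of open loci fell by 1485 with TSA, which is the difference in length of the lists, and the gain and the loss were each far larger than this net.

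Promoters were mostly kept, and the loci that opened or closed were mainly distal. Among promoter loci, within 1000 bp of a TSS, 608 opened, 646 closed and 14527 were kept. The opened ones were 4.02% (3.71 to 4.34) of the promoter loci in Hras.E1A+TSA and the closed ones 4.26% (3.94 to 4.59) of those in Hras.E1A. Among distal loci 10644 opened, 12091 closed and 53305 were kept, so that 16.6% (16.4 to 16.9) of the distal loci in Hras.E1A+TSA were opened and 18.5% (18.2 to 18.8) of those in Hras.E1A were closed. Promoter loci were 5.4% (4.99 to 5.84) of opened loci, 5.07% (4.70 to 5.47) of closed loci and 21.4% (21.1 to 21.7) of kept loci. With the 25% of peaks with the lowest scores removed from each list, promoter loci were 8.69% (8.17 to 9.23) of opened, 5.46% (5.06 to 5.88) of closed and 22.8% of kept loci. With lists of equal length they were 11.1% (10.51 to 11.67) of opened, 5.41% of closed and 22.8% of kept loci. The share was below that of kept loci in both classes under all 3 settings, while the similarity of opened and closed loci was found in the full lists only.

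The closed share rose at each step of distance to the TSS, while the opened share rose unevenly. Where the locus covered a TSS, 1.85% of the loci in Hras.E1A+TSA were opened and 2.13% of those in Hras.E1A were closed. The shares were 10.3% opened and 10.4% closed up to 1000 bp away, and 17.4% opened and 15.9% closed between 1000 and 5000 bp. Between 5000 and 10000 bp the opened share was lower again, at 13.7% (12.9 to 14.4), with 16.1% closed. Between 10000 and 50000 bp they were 14.8% opened and 17.6% closed, and beyond 100000 bp 21.5% opened and 22.8% closed. Opened loci exceeded closed loci in share only between 1000 and 5000 bp, where their intervals (16.4 to 18.4 and 14.9 to 16.9) overlapped. From 5000 to 50000 bp the opened share lay below the closed share beyond counting error. The Hras.E1A list is the longer one, and the shares by distance were not taken with lists of equal length.

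**Figure D1:**
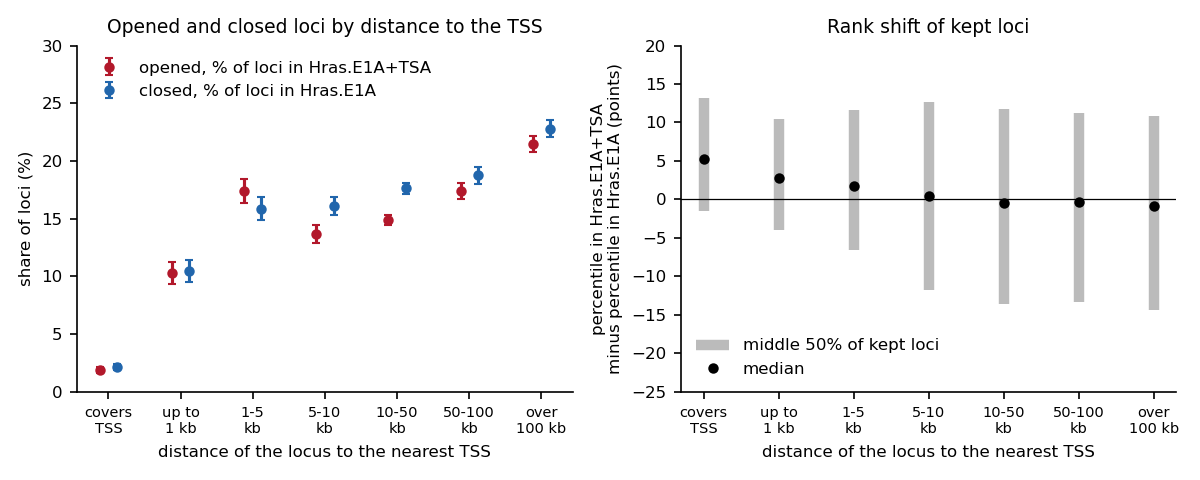
Left, the share of loci opened (red, % of the loci in Hras.E1A+TSA) and closed (blue, % of the loci in Hras.E1A) by distance to the nearest protein-coding TSS, with exact 95% intervals. Right, the percentile in Hras.E1A+TSA minus that in Hras.E1A at kept loci, as median (point) and middle 50% (bar), which falls from 5.19 points where the locus covers a TSS to -0.91 points beyond 100000 bp.

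The median rank shift of kept loci was higher at promoters than at distal loci. Over all 67832 kept loci the percentile in Hras.E1A+TSA minus that in Hras.E1A had a median of 1.07 points, quartiles of -10.02 and 11.9, and extremes of -92.3 and 88.2. At promoter loci the median shift was 4.60 points (order-statistic 95% interval 4.39 to 4.82), and at distal loci it was -0.21 points (-0.33 to -0.07). With the 25% of peaks with the lowest scores removed, the medians were 7.48 points at promoters and -0.43 points at distal loci. By distance it was 5.19 points where the locus covered a TSS, 2.73 up to 1000 bp, 1.76 between 1000 and 5000 bp, 0.43 between 5000 and 10000 bp and -0.91 beyond 100000 bp. Single loci varied widely about these medians. The middle 50% of promoter loci ran from -2.21 to 12.6 points and that of distal loci from -12.9 to 11.6. Of the 67832 kept loci, 19308 rose and 16989 fell by 10 points or more.

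A shift of 20 points or more is called up or down below. Of the kept loci 9510 (14.0%) were up in Hras.E1A+TSA and 9449 (13.9%) were down. The balance differed by position: 1642 promoter loci were up and 487 down, whereas 7868 distal loci were up and 8962 down. Just inside the threshold stood a locus 118976 bp upstream of Hes1, at percentile 81.5 in Hras.E1A+TSA and 61.5 in Hras.E1A. Just outside it stood a locus near Serpinb1a, at 46.5 in Hras.E1A+TSA and 26.5 in Hras.E1A, and a locus near Psat1 at 56.5 in Hras.E1A+TSA and 76.5 in Hras.E1A was just inside the limit for down.

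**Figure D2:**
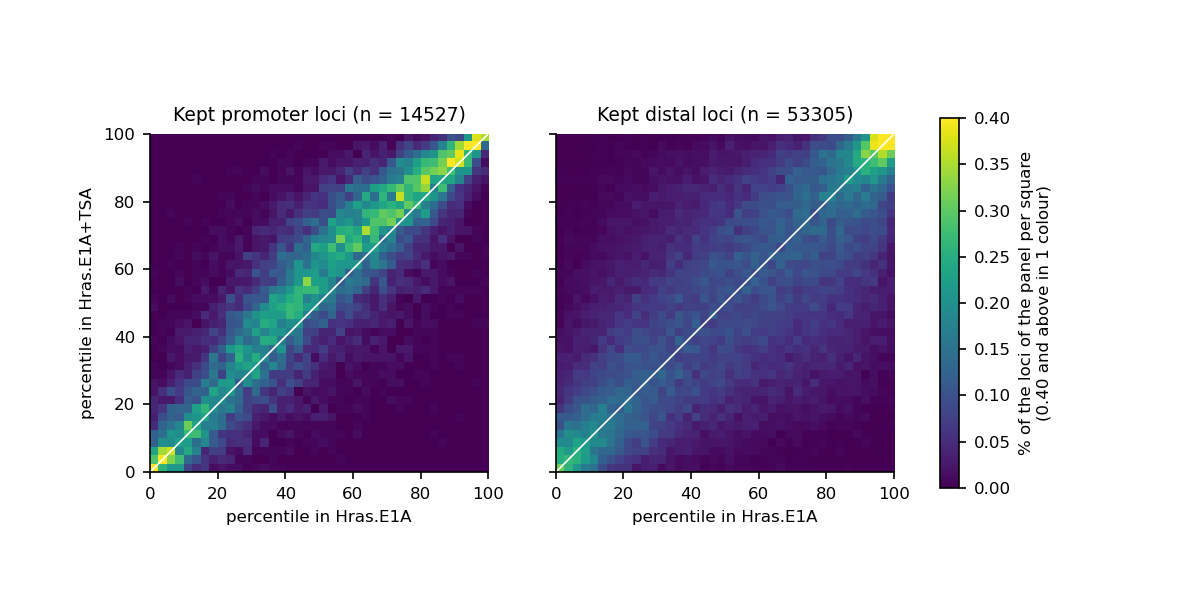
Percentile of each kept locus in Hras.E1A+TSA (vertical) against that in Hras.E1A (horizontal) for 14527 promoter loci and 53305 distal loci, with colour for the share of loci per square. Promoter loci lie mostly above the diagonal (median shift 4.60 points), and distal loci scatter on both sides of it (median -0.21).

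The promoter shift held within loci of like rank and like base composition. Among loci with a mean percentile of both lists from 25 to 50, promoter loci shifted by a median of 5.77 points and distal loci by 0.00. From 50 to 75 the medians were 8.08 points for promoter loci and -1.37 for distal loci, and from 75 to 100 they were 3.72 and -0.09. From 0 to 25 the medians were 0.58 and 0.15 points, with intervals (0.31 to 0.94 and -0.07 to 0.37) that overlapped. CpG content moved with the shift. With 1 CpG or fewer per 100 bp, promoter loci shifted by 0.05 points (-1.67 to 1.67) and distal loci by -0.57 (-0.78 to -0.35). With over 8 per 100 bp, promoter loci shifted by 5.18 points and distal loci by 2.50 (1.54 to 3.66). The promoter median was the higher one in every CpG class, though with overlapping intervals in the lowest. The part that CpG content plays in the shift was not tested.

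Opened and closed loci shared several features. Both were weak. Opened loci had a median percentile of 27.1 (quartiles 10.3 and 47.6) in Hras.E1A+TSA, and closed loci one of 31.9 (quartiles 12.9 and 55.9) in Hras.E1A, where kept loci had medians of 54.7 in Hras.E1A+TSA and 54.0 in Hras.E1A. At percentiles 0 to 10 of each list, 35.1% of the loci in Hras.E1A+TSA were opened and 33.0% of those in Hras.E1A were closed. At percentiles 90 to 100 the shares were 2.30% (1.98 to 2.65) opened and 4.89% (4.43 to 5.38) closed. Strong loci were therefore closed at a higher share than they were opened, and this held in each step of 10 percentiles from 50 upwards. These steps were not taken with lists of equal length.

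The median GC content was 46.0% in opened, 47.3% in closed and 49.8% in kept loci, with a mean of 1.27, 1.49 and 2.97 CpG per 100 bp. The median distance to the TSS was 34600 bp for opened, 33020 bp for closed and 18510 bp for kept loci. In gene bodies lay 52.1% of opened, 53.5% of closed and 53.3% of kept loci. By the annotation at the middle of the locus, introns had 16.2% opened and 17.9% closed, intergenic sequence 14.7% opened and 15.9% closed, coding exons 8.93% (7.78 to 10.2) opened and 13.9% (12.5 to 15.4) closed, and UTRs 4.03% (3.56 to 4.55) opened and 5.68% (5.13 to 6.28) closed. The closed share was above the opened one in each of these 4 kinds of sequence, with intervals that did not overlap. The Hras.E1A list is the longer one, however, and with lists of equal length 11427 loci opened and 11451 closed over all loci. The split by kind of sequence was not made with lists of equal length, so list length cannot be set apart here. In other exons 12.2% (10.6 to 13.8) were opened and 13.3% (11.7 to 15.0) closed, with intervals that overlapped. Across the autosomes the closed share ran from 13.5% on chromosome 19 to 17.5% on chromosome 9. On chromosome Y only 10 loci were open, of which 7 opened, 0 closed (which allows a closed share of up to 70.8%) and 3 were kept.

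Loci that turned over were less often open in cells of other lines. Of the opened loci 41.9% were open in Hras.Myc+TSA, 34.8% in Hras.Myc and 54.8% in Hdac7SA.Mef2d. Of the closed loci 31.7% were open in Hras.Myc+TSA, 28.7% in Hras.Myc and 70.1% in Hdac7SA.Mef2d. Of the kept loci 79.5% were open in Hras.Myc+TSA, 83.5% in Hras.Myc and 83.3% in Hdac7SA.Mef2d. In none of the other 5 lists were 1442 opened loci (12.8%), 1269 closed loci (9.96%) and 1105 kept loci (1.63%). Closed loci were thus open in Hdac7SA.Mef2d more often than opened loci, and in the Hras.Myc lists less often, by more than counting error. The lists differ in length: of all 147985 loci, 118624 were open in Hdac7SA.Mef2d, 67178 in Hras.Myc and 70461 in Hras.Myc+TSA. The PD list of Hras.E1A is compared with the same untreated list, so no overlap with it is given.

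In all 34 motifs were searched, and AP-1, the binding site of Fos and Jun, was the most frequent of those described here. An AP-1 motif was present in 40.1% of opened and 25.1% of closed loci. Set at the GC content of the opened loci, the closed loci would hold 26.4%, a ratio of opened over closed of 1.52 (approximate 95% interval 1.46 to 1.58). Relative to kept loci that stayed within 20 points of their rank and with the same GC content, the ratio was 0.92 (0.90 to 0.95) in opened loci and 0.60 (0.58 to 0.62) in closed loci. Kept loci that moved also differed, with 1.14 (1.11 to 1.17) in those up and 0.83 (0.80 to 0.85) in those down. Without GC matching the opened loci had a ratio of 1.23 to kept loci, so the direction of that single value depended on the matching, while opened loci exceeded closed loci either way.

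The number of AP-1 motifs graded the loss of distal loci. With 0, 1 and 2 or more motifs, 16.7%, 17.3% and 12.9% of the distal loci in Hras.E1A+TSA were opened. The closed shares of the Hras.E1A loci were 22.4%, 13.8% and 5.49% (4.85 to 6.20), a far wider spread. The median shift of kept distal loci was -1.27 points (-1.47 to -1.04) with no motif, 0.81 (0.57 to 1.1) with 1 and 1.43 (0.93 to 1.72) with 2 or more. Loci with AP-1 motifs also rank higher, so the shares were taken within 4 classes of percentile. At percentiles 0 to 25, 32.1% of loci with the motif and 28.1% of those without were opened, and 958 of 4789 loci with it and 33.1% without were closed. At percentiles 75 to 100, 5.04% with and 3.98% without were opened, and 6.05% with and 10.3% without were closed. In all 4 classes loci with an AP-1 motif were opened more often and closed less often than loci without.

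The CRE site TGACGTCA, which CREB and ATF proteins bind, is 1 base longer than the AP-1 motif, cannot match it at the same place, and was rare, in 0.584% of all loci. It was found in 65 opened and 26 closed loci, with a ratio of opened over closed of 3.02 (1.91 to 4.79) and of closed over kept of 0.30 (0.20 to 0.44). The ratio of opened over kept was 0.91 (0.69 to 1.19), with an interval that includes 1, so the site was scarce in closed loci rather than frequent in opened ones. Of the distal loci with this site 8.01% (5.25 to 11.6) were closed, against 18.5% without it.

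MEF2, GATA and homeodomain motifs were more frequent in opened than in closed loci. The ratio of opened to kept loci was 1.46 (1.15 to 1.84) for MEF2, 1.43 (1.27 to 1.61) for the GATA site AGATAAG and 1.27 (1.15 to 1.41) for TAATTA, a core site of homeodomain proteins. The closed loci had 0.90 (0.68 to 1.17), 1.01 (0.89 to 1.15) and 0.94 (0.84 to 1.05) for the same 3 motifs, with intervals that all include 1. The MEF2 ratio of opened to kept loci was 1.198 (0.91 to 1.57) with the 25% of peaks with the lowest scores removed and 1.23 (0.94 to 1.62) with lists of equal length, and both intervals include 1. Without GC matching the closed loci had 1.26 (1.1 to 1.43) for the GATA site and 1.27 (1.14 to 1.42) for the homeodomain site. Of the distal loci in Hras.E1A+TSA with a MEF2 motif 23.3% (19.3 to 27.6) were opened, against 16.6% without. The GATA site gave 23.1%, against 16.5% without, and the homeodomain site 22.6% with 1 site and 28.0% (18.7 to 39.1) with 2 or more, against 16.4% without. Over all loci 2.61% held the GATA site and 3.83% the homeodomain site.

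TEAD, RUNX and STAT (TTCCNGGAA) motifs were more frequent in closed loci. The ratio to kept loci was 1.09 (1.04 to 1.15) in opened and 1.32 (1.27 to 1.38) in closed loci for TEAD. For opened loci this was 1.03 (0.98 to 1.09) with the lowest scores removed and 1.00 (0.95 to 1.05) with lists of equal length. It was 0.90 (0.83 to 0.98) in opened and 1.17 (1.09 to 1.26) in closed loci for RUNX, and 1.07 (0.86 to 1.34) in opened and 1.38 (1.14 to 1.67) in closed loci for STAT. Distal loci with 0, 1 and 2 or more TEAD motifs were opened in 16.4%, 17.8% and 18.6% of cases and closed in 17.6%, 21.9% and 29.3% (26.8 to 31.9). For RUNX the closed shares were 18.3%, 20.9% and 29.1% (23.02 to 35.8). At percentiles 75 to 100 of the Hras.E1A list 10.9% of loci with a TEAD motif were closed, against 7.31% without, and the same order was found in the other 3 classes of percentile. The forkhead motif TGTTTAC had 0.80 (0.71 to 0.91) in opened and 1.13 (1.01 to 1.25) in closed loci, and was found in 3.11% of all loci. With the lowest scores removed its closed ratio was 1.09 (0.97 to 1.23), which includes 1. Without GC matching the opened loci had 1.18 for RUNX and 1.02 for the forkhead motif, above 1 in both cases. The STAT motif was found in 0.953% of all loci, and its last 4 letters can overlap a TEAD motif.

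Most loci with a CTCF motif were kept. Of the distal loci with a CTCF motif 3.55% (2.33 to 5.15) in Hras.E1A+TSA were opened and 9.01% (7.09 to 11.3) in Hras.E1A were closed, against 16.8% and 18.6% of distal loci without it. Only 28 opened and 74 closed loci held the motif, and at kept loci with it the median shift was -2.33 points (-3.55 to -0.69). The ratios to kept loci were 0.25 (0.17 to 0.37) in opened and 0.53 (0.42 to 0.68) in closed loci. They were 0.61 and 0.77 once the 25% of peaks with the lowest scores were removed from each list. With lists of equal length they were 0.57 in opened and 0.81 (0.64 to 1.02) in closed loci, where the interval for closed loci includes 1. A pair of closed loci with the motif is shown, the highest-ranked ones, at percentiles 68.0 and 60.8 of the Hras.E1A list.
Lmntd1 intron, CTCF (chr6:145417141-145417200): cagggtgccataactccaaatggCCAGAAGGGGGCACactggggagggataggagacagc
Gsg1l intron, CTCF (chr7:126042544-126042603): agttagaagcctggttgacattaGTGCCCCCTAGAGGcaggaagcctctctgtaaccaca
In the Gsg1l locus the motif reads on the minus strand.

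**Figure D3:**
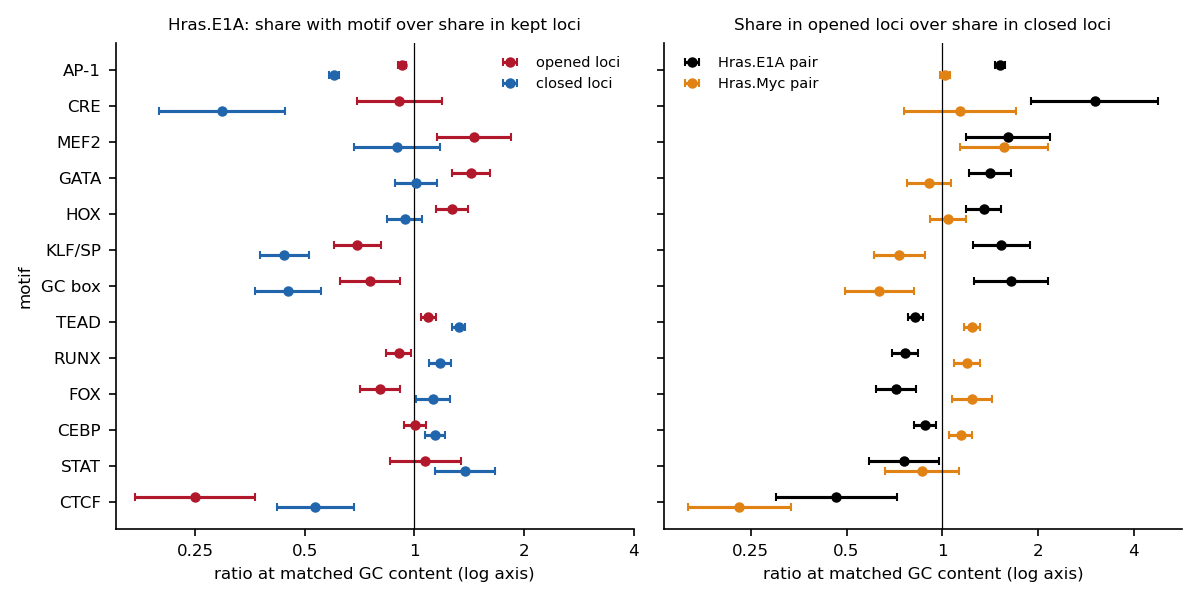
Left, the share of opened (red) and closed (blue) loci of the Hras.E1A pair with each motif, divided by the share in kept loci within 20 points of the same rank and at the same GC content, on a log axis with approximate 95% intervals. Right, the share in opened over the share in closed loci for the Hras.E1A pair (black) and the Hras.Myc pair (orange), where AP-1 is at 1.52 and 1.02.

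TSA was set beside the same treatment in Hras.Myc cells, a pair of lists that shares no sample with the Hras.E1A pair. Hras.Myc+TSA was also 1 library and Hras.Myc 2 pooled libraries. Treatment and number of pooled libraries therefore cannot be told apart in either pair. In Hras.Myc 14325 loci opened and 11042 closed with TSA, 20.3% of the loci in Hras.Myc+TSA and 16.4% of those in Hras.Myc. Opened minus closed loci is the difference in length between the lists of a pair, and with lists of equal length it was -24 in Hras.E1A. The promoter shift had the same direction in both, with 4.60 points in Hras.E1A cells against 11.4 (11.1 to 11.8) for Hras.Myc. The distal median was -0.21 points in Hras.E1A cells and -0.15 (-0.32 to 0.04) for Hras.Myc, where the interval includes 0. MEF2 motifs had the ratio of opened over closed at 1.61 in Hras.E1A and 1.56 in Hras.Myc, while for AP-1 motifs it was 1.52 in Hras.E1A cells against 1.02 (0.98 to 1.06) for Hras.Myc. For the GATA, homeodomain and CRE sites the ratio was 1.416, 1.349 and 3.02 in Hras.E1A. In Hras.Myc it was 0.91 (0.776 to 1.065), 1.045 (0.916 to 1.192) and 1.14 (0.758 to 1.711) for the same sites, with intervals that all include 1.

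The loci themselves overlapped in part. Of the loci opened in Hras.E1A 2023 were opened in Hras.Myc too, 17.98% of those of Hras.E1A and 14.1% of those of Hras.Myc. For closed loci the overlap was 1580, 12.4% of those of Hras.E1A and 14.3% of those of Hras.Myc. Changes in opposite directions were found too. Of the 3918 loci opened in Hras.E1A and open in Hras.Myc, 1231 closed in Hras.Myc, beside 11042 of all 67178 loci in Hras.Myc. Of the loci closed in Hras.E1A and without a peak in Hras.Myc, 1960 opened in Hras.Myc+TSA and 7116 did not. Over all loci of the series without a peak in Hras.Myc, 14325 opened and 66482 did not. In both cases the share that changed was above that of all loci. A locus can close in both lines only if it is open in both untreated lists. Among the 60269 such loci, 43.2% of the 3661 closed in Hras.E1A were closed in Hras.Myc, against 13.9% of all of them. Among the 60507 loci open in neither untreated list, 27.6% of the 7334 opened in Hras.E1A were opened in Hras.Myc, against 13.7% of all of them. Weak loci turn over in both lines and peak positions are shared between lists, and the part of either in this overlap was not tested.

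Loci were also read by gene, where a locus counted for the gene of its closest coding TSS, if that lay at most 10000 bp away. This gave 16857 genes with a locus, of which 2353 had an opened locus, 2462 a closed one and 405 both, while 11563 genes had kept loci only. Within this window 23.9% of the loci without a peak in Hras.E1A opened, 9.70% of those open in Hras.E1A closed, and of the kept loci 12.8% were up and 7.69% down. Few genes gathered several changes: with predicted genes left out, 12 gained 3 or more loci net of losses and 28 lost 3 or more. Genes and loci named below were picked by the size of their change, so their values are a description.

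Among genes that gained loci, Dst, which encodes the cytoskeletal linker dystonin, had 4 opened, none closed and 4 kept (chr1:33908225-34308661). Its opened loci stood at percentiles 26.4, 34.3, 10.2 and 36.2 in Hras.E1A+TSA with no peak in Hras.E1A. The kept ones were at 44.98, 42.2, 83.0 and 58.2 in Hras.E1A+TSA, against 27.6, 35.5, 89.7 and 93.3 in Hras.E1A. The opened loci of Dst were thus in the lower part of the list, and 7 opened and 4 closed within 50000 bp.

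Pdgfra, which encodes a receptor for platelet-derived growth factor and marks fibroblasts, had 3 opened loci, all within 1000 bp of a start site (chr5:75152292-75198215). They stood at percentiles 0.457, 2.53 and 2.45 in Hras.E1A+TSA and had no peak in Hras.E1A, so they were among the weakest peaks of the list. The locus over the TSS was at 25.1 in Hras.E1A+TSA and 26.5 in Hras.E1A, and a locus 8762 bp upstream at 68.0 in Hras.E1A+TSA and 51.3 in Hras.E1A. The main promoter peak of Pdgfra hardly moved while weak peaks appeared on both sides of it.

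Of the 12 genes that gained 3 or more, the other 8 named here had 3 opened and no closed loci. They were Sept9, a septin gene, Tbc1d1, Fam25c, the forkhead factor gene Foxp2, the autophagy gene Gabarapl1, Igsf3, Camta1 and the RNA-binding ubiquitin ligase gene Trim71. At Trim71 the opened loci were at percentiles 4.49, 1.48 and 48.3 in Hras.E1A+TSA, and the locus 19 bp from the TSS was at 50.0 in Hras.E1A+TSA and 17.8 in Hras.E1A. At Igsf3 they were at 54.0, 4.39 and 33.2. The genes of this set had from 1 kept locus (Fam25c and Gabarapl1) to 13 (Sept9).

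Gper1, which encodes a membrane receptor for oestrogen, lost every locus it had (chr5:139423151-139427800). Its 4 closed loci stood at percentiles 55.6, 5.42, 26.7 and 29.9 in Hras.E1A, the second of them over the TSS, and none had a peak in Hras.E1A+TSA. In the Hras.Myc lists 2 loci of Gper1 were opened with TSA and none closed. Zbtb20, which encodes a zinc finger repressor, had 3 closed loci at percentiles 32.4, 11.3 and 58.9 in Hras.E1A and 5 kept ones. Of these, a locus 6911 bp upstream of a start site stood at 56.6 in Hras.E1A+TSA and 98.6 in Hras.E1A, and one 6859 bp downstream at 56.1 in Hras.E1A+TSA and 21.1 in Hras.E1A. Loci of 1 gene thus moved in opposite directions.

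Of the 28 genes that lost 3 or more, the other 8 named here lost 3 loci and gained none within 10000 bp. They were taken from those with equal counts by their loci within 50000 bp, and were Samd4, the ion channel gene Asic2, Epb41l2, the co-repressor gene Cbfa2t3, Dnajc13, Loxhd1, Angptl7 and Csrnp1. Within 50000 bp Samd4 had 8 closed and 1 opened. At Asic2 the closed loci stood at percentiles 27.7, 51.4 and 13.1 in Hras.E1A, and at Angptl7 at 30.8, 2.13 and 9.27, with no kept locus within 10000 bp. These closed loci, like the opened ones, lay mainly in the lower part of the list.

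**Figure D4:**
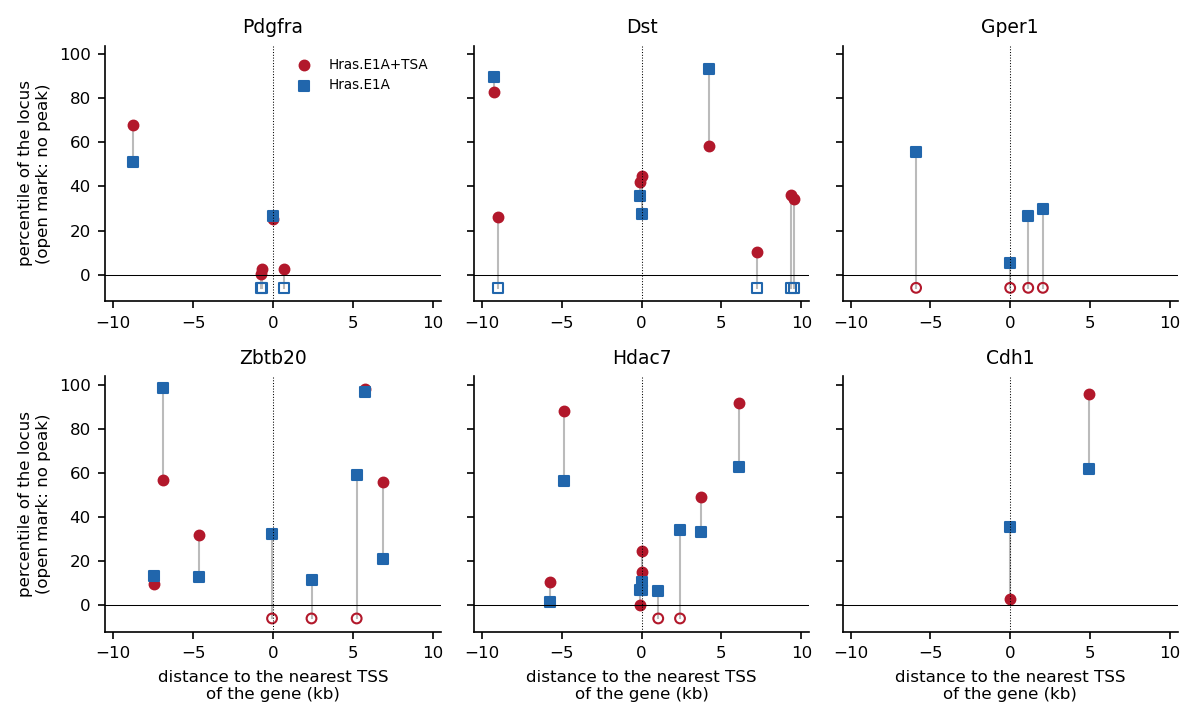
Percentile of each locus within 10000 bp of the TSS of 6 genes (vertical) by distance to the nearest TSS of that gene in kb (horizontal), in Hras.E1A+TSA (red circles) and Hras.E1A (blue squares). Open marks below 0 stand for no peak, as at the 4 loci of Gper1 in Hras.E1A+TSA and the 3 opened loci of Pdgfra in Hras.E1A, and a vertical line joins the values of 1 locus.

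Ranks were compared by gene at the 2302 genes with 3 or more kept loci, of which 73 had a median shift of 20 points or more up and 26 of 20 or more down. Mindy3, which encodes a deubiquitinase, had the highest median rise, 42.1 points, over 3 loci at percentiles 71.3, 40.5 and 78.7 in Hras.E1A+TSA, against 29.2, 34.4 and 9.70 in Hras.E1A. St6galnac2, Sstr3, Elfn2, Ttll8, Ankrd35, Esr1, Cep192, Acsl6 and Shh followed with medians from 35.5 down to 31.3. Shh, the gene of the Sonic hedgehog ligand, had 3 kept loci at 46.9, 53.2 and 67.9 in Hras.E1A+TSA, against 15.7, 37.9 and 19.2 in Hras.E1A, while the locus next to its TSS, at 5.15 in Hras.E1A, closed. Esr1, the gene of oestrogen receptor alpha, had 2 loci up by over 30 points and 1 that stood at 31.7 in Hras.E1A+TSA and 76.0 in Hras.E1A, beside 2 closed loci. A high median at these genes did not mean that all their loci rose.

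The lowest medians were at Myo5c (-33.9), Gucy1b2 (-32.7), Msx3 (-31.8), Cfap161, Spon1, Tmc5, Hmgxb4, Nfu1, Rgs8 and Them7 (-26.5). The homeobox gene Msx3 had loci at percentiles 10.1, 16.6 and 25.3 in Hras.E1A+TSA, against 2.30, 48.4 and 64.2 in Hras.E1A. Myo5c, a myosin gene of epithelia, fell at both loci away from its start, at 36.2 and 63.1 in Hras.E1A+TSA, against 70.1 and 97.7 in Hras.E1A. Its TSS locus went the other way, at 50.6 in Hras.E1A+TSA and 0.156 in Hras.E1A.

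The 10 strongest loci that opened were intergenic or intronic, from 16335 to 1216459 bp from the nearest start site. The highest, at percentile 99.98 in Hras.E1A+TSA, lay 1216459 bp from the nearest start site, that of Ndufa4, was wholly repeat-masked, and stood near the top of both Hras.Myc lists with and without TSA. Next came loci nearest to Tenm4 (99.8), Ndufs4 (99.8), Phactr1 (99.5), Tpm3-rs7 (99.5), Apbb1ip (99.4), Lrfn5, Vrk1, Kcns3 and Ccdc192 (98.9). The strongest loci that closed were at percentiles from 99.8 to 99.4 in Hras.E1A. Their nearest genes were Pdlim3, Ncald, Map3k1, Myc, the predicted gene Gm9008, Rarb, Fam13a, Prmt6, Tlr4 and Slc14a2. The Myc entry lay 902385 bp from the Myc start. Of these 10 opened loci 7 held an AP-1 motif in their centre, against 3 of the 10 closed ones.

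The greatest single rises and falls were also distal. A locus 24998 bp upstream of Cyp11a1 was at percentile 90.0 in Hras.E1A+TSA and 1.76 in Hras.E1A, and a locus in an intron of Jazf1 at 99.0 in Hras.E1A+TSA and 10.98 in Hras.E1A. Others that rose by over 80 points were nearest to Eif4e, Psd3, Bcor, Syt13, Tnc, Vmp1, Fgf1 and Efcab14. A locus near Lce1m was at 5.13 in Hras.E1A+TSA and 97.5 in Hras.E1A, and a locus 71969 bp from the death receptor gene Fas at 8.53 in Hras.E1A+TSA and 93.7 in Hras.E1A. Igsf5, Macc1, Bend4, Rassf6, Tspan2, Dhrs7, Tmpo and Zeb2 were nearest to the other loci that fell by over 80 points. An AP-1 motif was present in 8 of the 10 loci that rose and in 7 of the 10 that fell.

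The targets of the drug came next. At Hdac1 and Hdac2, the catalytic subunits of the main nuclear deacetylase complexes, the TSS loci were at percentiles 96.2 and 52.9 in Hras.E1A+TSA, against 95.4 and 53.4 in Hras.E1A. Hdac3, the enzyme of the NCoR complex, had 52.4 in Hras.E1A+TSA and 53.6 in Hras.E1A. The TSS locus of Hdac8, a further class I enzyme, stood at 17.9 in Hras.E1A+TSA and 43.7 in Hras.E1A, and a locus 3951 bp upstream opened at 42.5. Apart from Hdac8, the promoters of class I genes thus stayed within 2 points of their rank. Of the 3 kept loci of Hdac2, 1 was up and 1 down.

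At class II and IV genes 3 of 16 kept loci were up and 1 was down, beside 1 up and 2 down of 7 at class I genes. Hdac7, a class IIa enzyme that binds MEF2, had 7 kept and 2 closed loci, the closed ones at percentiles 34.0 and 6.25 in Hras.E1A, and its kept loci included one at 91.9 in Hras.E1A+TSA and 62.7 in Hras.E1A and one at 88.0 in Hras.E1A+TSA and 56.5 in Hras.E1A. Hdac9, also class IIa, had no peak in Hras.E1A within 10000 bp and 2 opened loci, one over a TSS, at 16.5 and 16.8 in Hras.E1A+TSA. Hdac4 and Hdac5 each lost 1 weak locus, at 0.966 and 6.15 in Hras.E1A, and their TSS loci were at 78.4 and 76.4 in Hras.E1A+TSA, against 69.3 and 84.0 in Hras.E1A. Hdac6, the cytoplasmic enzyme that acts on tubulin, and Hdac10 kept all their loci, and 1 of the 2 kept loci of Hdac6 was down. Hdac11, the class IV enzyme, had its TSS locus at 94.2 in Hras.E1A+TSA and 74.0 in Hras.E1A.

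Counts near genes of acetylation control were small. The class I list had 1 of 2 loci that could open opened, 0 of 7 closed, 1 up and 2 down. The class II and IV list had 2 of 7 opened, 4 of 20 closed, 3 of 16 kept loci up and 1 down. Subunits of deacetylase complexes, such as the Sin3 and NuRD proteins, had 2 of 14 opened, 3 of 46 closed, 7 of 43 kept loci up and 3 down, with a median shift of 9.16 points. Acetyltransferase genes had 4 of 7 opened and 2 of 26 closed, among them Kat2b with 2 opened loci at percentiles 37.5 and 0.734 in Hras.E1A+TSA. Genes of acetyl readers, the bromodomain proteins, had 1 of 8 opened and 3 of 26 closed. All genes together had a median shift of 3.30 points in this window, and no interval of these lists excluded the share of all genes.

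Genes known to rise with deacetylase inhibitors in other cells had 7 of 21 loci opened (33.3%), 4 of 59 closed (6.78%), and 1 of 55 kept loci up and 4 down. Cdkn1a, which encodes the cell cycle inhibitor p21 and is the classic such gene, had its TSS locus at percentile 42.8 in Hras.E1A+TSA and 24.8 in Hras.E1A, with 1 weak locus opened (4.98) and 1 closed (6.91). Gsn, the gene of gelsolin, had 2 weak opened loci at 2.27 and 3.804 in Hras.E1A+TSA, and its TSS loci were at 38.5 and 28.4 in Hras.E1A+TSA, against 69.0 and 40.01 in Hras.E1A. Over all genes 23.9% of such loci opened, 9.70% closed, and 12.8% of kept loci were up and 7.69% down. The list median was 4.19 points and that of all genes 3.30 points.

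Targets of REST, which recruits deacetylases through CoREST to silence neuronal genes, had 5 of 18 loci opened, 4 of 57 closed, 6 of 53 kept loci up and 8 down. AP-1 genes had 2 of 5 opened, 2 of 27 closed, and 4 of 25 kept loci up with none down. Atf3, a stress-induced member, had kept loci at 79.4 and 81.2 in Hras.E1A+TSA, against 58.0 and 52.6 in Hras.E1A. Feedback and early response genes of ERK had 4 of 19 opened, 6 of 60 closed, and 2 of 54 kept loci up with none down. Over all genes 23.9% of such loci opened and 9.70% closed, with 12.8% of kept loci up and 7.69% down. The intervals of the opened and closed shares of these lists all included the share of all genes.

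Developmental homeobox genes had 21 of 52 loci opened, 40.4% (27.0 to 54.9), beside 23.9% over all genes, with 17 of 185 closed, and 28 of 168 kept loci up and 13 down. Pitx1, a gene of hindlimb and pituitary, had a TSS locus that opened at percentile 2.89 in Hras.E1A+TSA and another at 11.5, with 1 closed at 12.3 in Hras.E1A. Lhx5 had 2 opened loci at 8.11 and 5.36 in Hras.E1A+TSA, and its kept loci had a median shift of -13.4. Gsx2 had 2 closed loci, at 1.65 and 36.5 in Hras.E1A, and its locus 143 bp from the TSS was at 48.1 in Hras.E1A+TSA and 21.5 in Hras.E1A. Neural markers had 5 of 8 opened, 62.5% (24.5 to 91.5), 5 of 41 closed, and 7 of 36 kept loci up and 2 down. Rbfox3, a neuronal splicing factor, had both of its loci closed, at 23.8 and 14.1 in Hras.E1A. The loci that opened at these genes were mostly weak peaks. The opened share of the homeobox genes was 28.5% (21.6 to 36.2) within 50000 bp, beside 20.4% of all genes, and 45.5% (28.1 to 63.6) within 5000 bp, beside 26.4% of all genes. That of the neural markers was 29.7% (15.9 to 47.0) within 50000 bp and 3 of 5 loci (14.7% to 94.7%) within 5000 bp, and both intervals include the share of all genes. In the Hras.Myc pair 25.7% of homeobox and 16.7% of neural loci opened within 10000 bp, beside 26.1% of all genes. These lists are 2 of 26 set beside all genes, with 52 shares, and are given as a description.

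Hox genes had 10 of 30 opened, 12 of 81 closed, 14 of 69 kept loci up and 5 down. Hoxb9 had a locus 84 bp from its TSS at percentile 66.2 in Hras.E1A+TSA and 35.0 in Hras.E1A. Pluripotency genes had 3 of 10 opened and 6 of 42 closed, with 4 of 36 kept loci up and 6 down. Lin28a, an RNA-binding regulator of early development, had 2 of the 3 opened loci, one over its TSS at 20.6 and one at 8.43 in Hras.E1A+TSA. Germline genes had 2 of 6 opened and 1 of 6 closed, the opened ones at Sycp3 (44.2) and Dnmt3l (53.2). Imprinted genes had 5 of 15 opened and 5 of 42 closed. The shares over all genes were 23.9% opened, 9.70% closed, and 12.8% of kept loci up and 7.69% down. Each interval of an opened or closed share of these lists included that of all genes.

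Fibroblast and mesenchymal genes had 15 of 45 loci opened (33.3%), 5 of 53 closed (9.43%), and 8 of 48 kept loci up and 5 down. Epithelial genes had 1 of 17 opened (5.88%), 6 of 52 closed (11.5%), and 6 of 46 kept loci up and 3 down. Collagen genes had 4 of 37 opened and 11 of 85 closed, with 14 of 74 kept loci up and 6 down, of which Col15a1 had 3 up. Contractile genes and targets of SRF had 2 of 21 opened and 4 of 44 closed. Within 10000 bp the intervals of these lists all included the share of all genes. For the collagens the opened share was 10.8% (6.39 to 16.7) within 50000 bp, below the 20.4% of all genes, and 0 of 20 (up to 16.8%) within 5000 bp, below the 26.4% of all genes.

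Cell cycle genes had 3 of 12 opened, 1 of 44 closed, and 6 of 43 kept loci up and 1 down. Checkpoint genes had 4 of 11 opened and 3 of 47 closed. Interferon response and MHC class I genes had 5 of 14 opened, 3 of 41 closed, and 6 of 38 kept loci up with none down. B2m, the shared chain of MHC class I, had its TSS locus at percentile 91.4 in Hras.E1A+TSA and 63.9 in Hras.E1A, and a locus 5688 bp upstream, at 28.6 in Hras.E1A, closed. Endothelial genes had 2 of 9 opened and 2 of 18 closed, blood and macrophage genes 1 of 4 opened and 1 of 13 closed, housekeeping genes 2 of 4 opened and 2 of 33 closed, and histone genes 0 of 4 opened and 1 of 34 closed. Beside these stand 23.9% opened and 9.70% closed over all genes, with 12.8% of kept loci up and 7.69% down. All intervals of the opened and closed shares of these lists included the share of all genes.

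**Figure D5:**
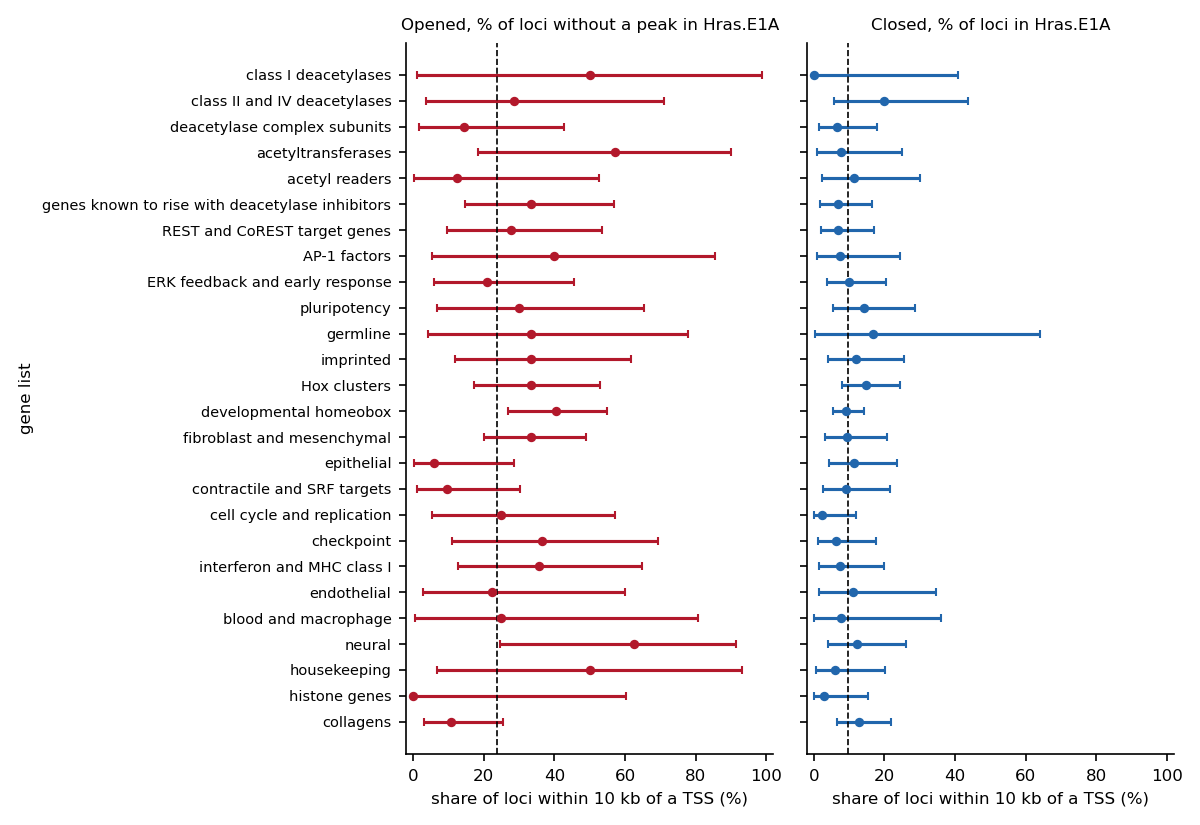
Share of loci opened (left, red, % of loci without a peak in Hras.E1A) and closed (right, blue, % of loci in Hras.E1A) within 10 kb of the TSS of the members of 26 gene lists, with exact 95% intervals and a dashed line at the share over all genes (23.9% opened and 9.70% closed). The intervals of developmental homeobox and neural genes lie above the line for opened loci.

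The cell type of the lists was checked at the promoters of marker genes. Of 18 fibroblast markers 15 had a promoter locus in Hras.E1A+TSA and 13 in Hras.E1A. Of 10 epithelial markers 9 had one in each list, of 8 neural markers 8 in each, of 8 blood markers 4 in each, and of 8 endothelial markers 2 in Hras.E1A+TSA and 3 in Hras.E1A. An open promoter was thus found at markers of several cell types and does not single out fibroblasts.

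Genes that the study singles out closed the description. At Cdh1, which encodes the epithelial adhesion protein E-cadherin (chr8:106603351-106670246), the locus over the TSS was at percentile 2.61 in Hras.E1A+TSA and 35.5 in Hras.E1A. A locus 4912 bp into the gene went the other way, at 96.1 in Hras.E1A+TSA and 61.8 in Hras.E1A, as did one 16202 bp into it, at 63.1 in Hras.E1A+TSA and 33.6 in Hras.E1A. A locus 22726 bp into the gene, at 56.5 in Hras.E1A, had no peak in Hras.E1A+TSA. The Hras.Myc pair had the same direction at each of these loci. The TSS locus had no peak in Hras.Myc+TSA and was at 9.48 in Hras.Myc, and the locus at 4912 bp was at 92.9 in Hras.Myc+TSA and 73.1 in Hras.Myc. The locus at 16202 bp was at 87.1 in Hras.Myc+TSA and 49.2 in Hras.Myc. The locus 22726 bp into the gene was at 21.2 in Hras.Myc+TSA and 41.7 in Hras.Myc. One at 11303 bp was at 29.6 in Hras.E1A+TSA and 31.7 in Hras.E1A, and at 9.12 in Hras.Myc+TSA and 38.2 in Hras.Myc. Loci within the introns of Cdh1 thus went both ways.

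Epcam, another epithelial gene, hardly moved, with its TSS locus at 52.9 in Hras.E1A+TSA and 53.2 in Hras.E1A. The TSS locus of Isl1, a homeobox gene, was at 93.6 in Hras.E1A+TSA and 65.9 in Hras.E1A. Tcf7l2, a transcription factor gene of the Wnt pathway, kept all 5 loci within 10000 bp of its start sites, with the locus over an internal start site at 96.2 in Hras.E1A+TSA and 94.2 in Hras.E1A and the one 8461 bp upstream at 36.8 in Hras.E1A+TSA and 67.8 in Hras.E1A. Farther from its start sites, a locus in an intron at 47.3 in Hras.E1A closed, and kept loci went both ways, among them 1 at 79.6 in Hras.E1A+TSA and 48.3 in Hras.E1A and 1 at 10.8 in Hras.E1A+TSA and 37.6 in Hras.E1A. Hras itself had its TSS locus at 79.4 in Hras.E1A+TSA and 68.3 in Hras.E1A, and the files do not separate the transgene from the gene.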

How the data were processed

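Per the labels and the study's methods, reads were aligned to mm10, peaks were called with MACS2, and weak peaks were then recovered with redefine_peaks, which shares peaks across samples, so the lists are not independent. Each group has 1 list, in which its libraries were pooled in a way not given in the sources used here. Bowtie2 2.4.5 and MACS2 2.2.7.1 are the versions in the submitters' processing notes. The deposited score of each peak, made by the authors, has no stated scale, and read counts and depth were not used here.

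Peaks of the 7 lists were merged at 1 bp of overlap. Percentiles are ranks of the score within a list. Loci were placed by the nearest protein-coding TSS of GENCODE M21 (GRCm38), with promoters within 1000 bp and gene windows of 10000 bp. Shares have exact 95% intervals. For motif ratios the comparison loci were weighted to the same GC content in 10 bins, and the intervals are approximate (log-normal). The members, the 26 gene lists (4 of whose genes are not in the annotation) and the 34 motifs were chosen with earlier results of these data known. Named genes were the 10 with the most net opened or net closed loci within 10000 bp (ties by 50000 bp, then symbol, without predicted genes), the 10 with the highest rise or fall in median rank over 3 or more kept loci, up to 4 members of each list with the most changed loci, the deacetylase genes, Hras, and Cdh1, Epcam, Isl1 and Tcf7l2. Named loci were the 10 highest opened and closed and the 10 with the greatest shift each way. Alternatives changed the list length, the 25% of peaks with the lowest scores, the promoter and gene windows, the rank threshold, the merging, the motif window and the GC matching, some of them chosen after seeing the data. No sequence was taken from chromosome 18. A few named genes are not reported here. The code was tested on simulated data. Python 3.11.15, numpy 2.4.6, pandas 2.3.3, scipy 1.17.1, pysam 0.24.0, samtools 1.23.1 and matplotlib 3.10.9 were used.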

Additional observations from a re-analysis of the deposited data

Results flagged for a closer look

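Some values lay on opposite sides of 0 or 1 in the Hras.E1A and Hras.Myc lines, and with 1 list per group the differences between the lines were not tested. Opened minus closed loci came to -1485 in Hras.E1A and 3283 in Hras.Myc, which are the differences in list length within each pair, and with lists of equal length the Hras.E1A value was -24. Motif frequency in opened over that in closed loci, at matched GC content, was 0.82 in Hras.E1A and 1.24 in Hras.Myc for TEAD, and 0.76 in Hras.E1A and 1.196 in Hras.Myc for RUNX. It was 0.72 in Hras.E1A and 1.24 in Hras.Myc for the forkhead motif, and 0.88 in Hras.E1A and 1.14 in Hras.Myc for the CEBP motif TTGCNNAA. The values were 1.53 in Hras.E1A and 0.73 in Hras.Myc for the KLF and SP motif CCCCGCCC, and 1.65 in Hras.E1A and 0.63 in Hras.Myc for the longer GC box GGGGCGGGG, whose matches also hold that motif. Over all loci 9.58% held the CEBP motif, 3.73% the KLF and SP motif and 2.26% the GC box.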

How the results depend on the processing

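The counts of opened loci (10956 to 11427) and closed loci (11451 to 12780) stayed within 1.5 times their values in every alternative run on them. With the 25% of peaks of lowest score removed from each list, the distal share closed was 23.4%, the promoter share closed 5.64%, the promoter share of opened loci 8.69%, the median shift 7.48 points at promoters and -0.43 at distal loci. The ratio to kept loci was then 1.03 for TEAD in opened loci, and for CTCF 0.61 in opened and 0.77 in closed loci. With both lists at the length of the shortest list, the same 3 shares were 23.7%, 5.68% and 11.1%, AP-1 in closed loci had 0.63, TEAD in opened loci turned to 1.00 (just under 1), TEAD in opened over closed loci had 0.77, and CTCF had 0.57 in opened and 0.81 in closed loci. A promoter window of 2000 bp gave 5.42% of promoter loci closed and 8.12% of opened loci at promoters. Ranks among kept loci only gave medians of 4.21 points at promoters and -0.50 at distal loci. A threshold of 10 points gave 19308 loci up and 16989 down, and one of 30 points 4499 up and 5108 down. In the central 100 bp AP-1 had 0.87 in opened loci, 0.54 in closed loci and 1.603 in opened over closed loci, and TEAD 1.38 in closed loci. Without GC matching opened loci turned direction for AP-1 (1.23), RUNX (1.18) and the forkhead motif (1.02), TEAD had 1.28 in opened and 1.53 in closed loci, and AP-1 0.77 in closed loci. The causes were not tested. The equal lengths and the removed peaks for motif ratios and for the promoter share of closed and kept loci, the opened over closed ratios and the splits by rank class and motif number were chosen after seeing the data. No paired analysis was possible because the libraries of a group are pooled in 1 list, and for the same reason no library could be left out. Depth is unknown, so weak loci may differ by detection alone.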
